A study of Rattus norvegicus with 172 samples.

Results

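Transcripts of 9 genes that mark neurons and their axons were followed in the transected rat spinal cord: the neurofilament genes Nefh, Nefm, Nefl and Ina, and the pan-neuronal genes Rbfox3, Elavl4, Thy1, Snap25 and Syt1. They were chosen by name out of 14218 genes on the array. Each gene was read from the probe set with the highest mean over all cord arrays, and 8 of the 9 were bright enough to be tested. Adult female Wistar rats, 2 months old, had 5 mm of cord removed at the T7-8 level. In the NT-3 tube arm a chitosan tube holding NT-3 on a chitosan carrier was placed in the gap, in the tube alone arm an empty chitosan tube, and in the lesion control arm nothing. Blocks of 5 mm were taken rostral to the lesion, from the lesion itself and caudal to it, with dura and meninges, on days 1, 3, 10, 20, 30, 60 and 90 after surgery (the lesion from day 3 on, and tube alone in the lesion on day 3 only), and from the matching level of normal rats without a lesion. Affymetrix rat genome arrays were hybridised with RNA from tissue pooled over 4 animals, although the labels do not say clearly that this covers normal cord, with 3 arrays per group and 2 for tube alone, rostral, day 10. This gave 164 arrays of injured tissue in 55 groups, 3 arrays of normal cord, and 5 arrays of a purchased reference RNA made from rat cell lines. Fibres left in the gap had been scraped and aspirated away at surgery, so the lesion block is tissue found later in the emptied gap.

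Neurofilaments are the intermediate filaments of axons. The light chain Nefl assembles with the medium chain Nefm, the heavy chain Nefh and, in neurons of the central nervous system, alpha-internexin, encoded by Ina, into polymers that help set axon calibre. Neurons of the cord and, outside it, sensory neurons of the dorsal root ganglia make these proteins; most of their mRNA lies in cell bodies, and axons hold mainly the protein.

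The RefSeq promoter table for the GRCr8 rat assembly, which gives a fixed window around each transcription start, held 3 of the 9 members. The windows of Ina and Elavl4 are shown because they are the 2 tested members in the table, 1 filament gene and 1 RNA-binding gene, and both fell in injured cord. The arrays did not measure anything at these windows. In the Ina window the capitals mark 2 matches to the GC box GGGCGG, read as CCGCCC on the strand shown. In the Elavl4 window they mark 1 match to CAGCACC, a stretch of the RE1 element bound by the repressor REST, read as GGTGCTG on the strand shown. Both strands were searched, and the matches overlap no other motif searched.
Ina, chr1:255837879-255838178, plus strand: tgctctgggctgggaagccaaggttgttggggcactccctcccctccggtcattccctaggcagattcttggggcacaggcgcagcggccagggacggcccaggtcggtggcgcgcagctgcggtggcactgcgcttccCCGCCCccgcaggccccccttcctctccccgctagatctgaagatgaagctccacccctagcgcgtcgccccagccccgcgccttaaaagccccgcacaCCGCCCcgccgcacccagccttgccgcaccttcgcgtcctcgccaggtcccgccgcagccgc
Elavl4, chr5:130367614-130367913, minus strand: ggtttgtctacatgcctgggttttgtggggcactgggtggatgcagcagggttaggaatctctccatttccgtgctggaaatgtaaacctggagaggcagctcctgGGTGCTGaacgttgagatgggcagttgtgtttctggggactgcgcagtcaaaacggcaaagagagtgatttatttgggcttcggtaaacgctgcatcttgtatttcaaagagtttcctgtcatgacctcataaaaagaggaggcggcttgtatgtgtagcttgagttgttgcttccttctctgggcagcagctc
Of 33469 promoter windows of this length, 33.1% held the GC box and 6.78% held the CAGCACC stretch. Neither window held a match to the TATA box TATAAA, found in 14.2% of windows, or to the cAMP response element TGACGTCA, found in 1.83%. These matches describe letters only.

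All values are log2 RMA values, so a difference of 1 is 2-fold. Ranges of arrays are given as description only, since the share of all genes with ranges apart was not counted. Within a group arrays correlated at a median r of 0.99, no arrays held identical values, and array medians lay between 7.10 and 7.25. P-values measure the spread between arrays of a group, which may be partly technical, and for normal cord it is not known to be a spread between pools. Groups also differed in the class I gene RT1-CE10, by arm and day: lesion control rostral arrays read 6.65 to 7.47 on all days but day 30 (10.73 to 11.13), while NT-3 tube rostral arrays read 10.39 to 11.36 on day 1 and 10.36 to 11.28 on day 90. Days on which 2 arms' means of RT1-CE10 differ by less than 1 are called matched days, and comparisons of arms are given on them too. Normal cord read 6.46 to 6.66, below the lesion block arrays of lesion control, which read 7.09 to 8.12 on days other than 30 and 11.1 to 12 on day 30. The comparisons with normal cord are thus not on matched days throughout, and the part of this difference in them was not tested.

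Normal cord expressed the neuronal genes at the highest level of any group. The 3 normal arrays read Nefh at 13.80, 14.06 and 13.81, Nefm at 13.97, 14.09 and 14.05, and Nefl at 14.07, 13.99 and 13.91. Ina read 11.18, 10.98 and 11.42, and Rbfox3, the gene of the neuronal nuclear antigen NeuN, 10.02, 10.82 and 10.36. For each of the 8 tested genes the normal mean ranked above all 55 injured groups. The reference RNA gave means of 5.00 ± 0.36 (SD, n = 5 technical arrays) for Nefl, 5.06 ± 0.33 for Nefm and 5.81 ± 0.54 for Snap25, so these probe sets separate cord from the reference by more than the spread. Thy1, a surface glycoprotein of projection neurons that T cells and fibroblasts can also carry, read 11.08 ± 0.10 in the reference against 12.46 in normal cord.

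Syt1, the vesicle calcium sensor synaptotagmin-1, was not measured usefully by its probe set. It read 5.53, 5.20 and 5.41 in normal cord and 5.03 ± 0.06 in the reference RNA, and its mean of 5.25 over cord arrays lay at the 19.3rd percentile of probe sets, below the level of 6.55 required for testing. It was therefore not tested and is left out of all counts.

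Rostral to the lesion every tested member was below normal cord in lesion control, from the first days to day 90. Nefh read between 12.70 and 13.54 on days 1-3 (median 12.94, 6 arrays), between 12.37 and 12.85 on days 10-30 (median 12.51, 9 arrays) and between 12.56 and 13.34 on days 60-90 (median 12.98, 6 arrays). All 21 arrays lay below the lowest normal array. Nefh changed by -0.87 ± 0.12, -1.33 ± 0.12 and -0.92 ± 0.12 (± SE here and below), on days 10-30 a 2.51-fold loss with limma adjusted p = 6.01e-14. Nefm changed by -0.50, -0.92 and -0.68 and Nefl by -0.68, -1.06 and -0.52 in the same windows. Ina, the filament gene most tied to central neurons, changed by -0.99 ± 0.23, -1.35 ± 0.22 and -0.87 ± 0.23.

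Sizes of change are not ranked between genes, since each probe set has its own response and values near background understate a loss. Rbfox3, whose protein is an RNA splicing regulator of mature neurons, was lower too. Its arrays ranged from 8.59 to 9.62 on days 1-3, from 6.98 to 8.97 on days 10-30 and from 8.75 to 9.19 on days 60-90, and none reached the lowest normal array of 10.02. The changes were -1.29 ± 0.27, -1.91 ± 0.25 (3.76-fold, limma adjusted p = 6.74e-09) and -1.39 ± 0.27. Elavl4, which encodes the neuronal RNA-binding protein HuD, changed by -0.58, -1.03 and -0.84, and Thy1 by -0.75, -1.14 and -1.07. Snap25, the t-SNARE of synaptic vesicle fusion, had arrays of 13.22 to 13.82, 13.14 to 13.57 and 13.29 to 13.66 against 13.74 to 13.89 in normal cord, with changes of -0.26 ± 0.10, -0.55 ± 0.10 and -0.35 ± 0.10. Its arrays overlapped the normal range on days 1-3.

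The 8 tested members were called lower in each of the 3 rostral windows. Of all genes tested there 30.1%, 32.4% and 32.5% were called lower, and the median change of all genes was -0.01, -0.02 and -0.06 against -0.72, -1.10 and -0.86 for the members. In a block of tissue fewer neurons and less RNA per neuron cannot be told apart. Markers of other cells rose in the same arrays: on days 10-30 fibroblast genes were higher in 8 of 8 (median 3.01) and microglia and macrophage genes in 8 of 8 (median 2.14), where 30.7% of all genes were called higher, while oligodendrocyte genes were lower in 6 of 7 tested (median -0.50). Genes of sensory ganglion neurons, described further with the lesion block, were higher in 4 of 7 tested then and in 6 of 7 on days 60-90 (25.4% of all genes). The part of these shifts in the members' values was not tested.

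Caudal to the lesion the same 8 genes were below normal in every window. Nefh read 12.83 to 13.74 on days 1-3 (median 13.16), 13.03 to 13.46 on days 10-30 (median 13.17) and 13.09 to 13.67 on days 60-90 (median 13.38), all below the lowest normal array. Its changes were -0.70 ± 0.10, -0.70 ± 0.09 and -0.52 ± 0.10, and those of Nefm -0.47, -0.45 and -0.39. Nefl changed by -0.61, -0.61 and -0.29, and on days 60-90 its highest array, at 13.97, lay within the normal range, as did the highest arrays of Ina and Snap25; on days 1-3 Snap25 overlapped normal cord too. Ina and Rbfox3 changed by -1.38, -1.25 and -1.02, and by -1.61, -1.58 and -1.33, with a wide spread over days. On day 3 the Rbfox3 arrays read 7.96, 8.21 and 7.75, against 9.77, 9.61 and 9.44 on day 1 and 9.68, 9.76 and 9.58 on day 90. Elavl4 (-0.89, -0.78, -0.82), Thy1 (-0.87, -0.88, -0.89) and Snap25 (-0.41, -0.44, -0.23) were lower too. Called lower were 30.4%, 29.3% and 28.8% of all genes tested, and the members' medians were -0.79, -0.74 and -0.67.

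**Figure D1:**
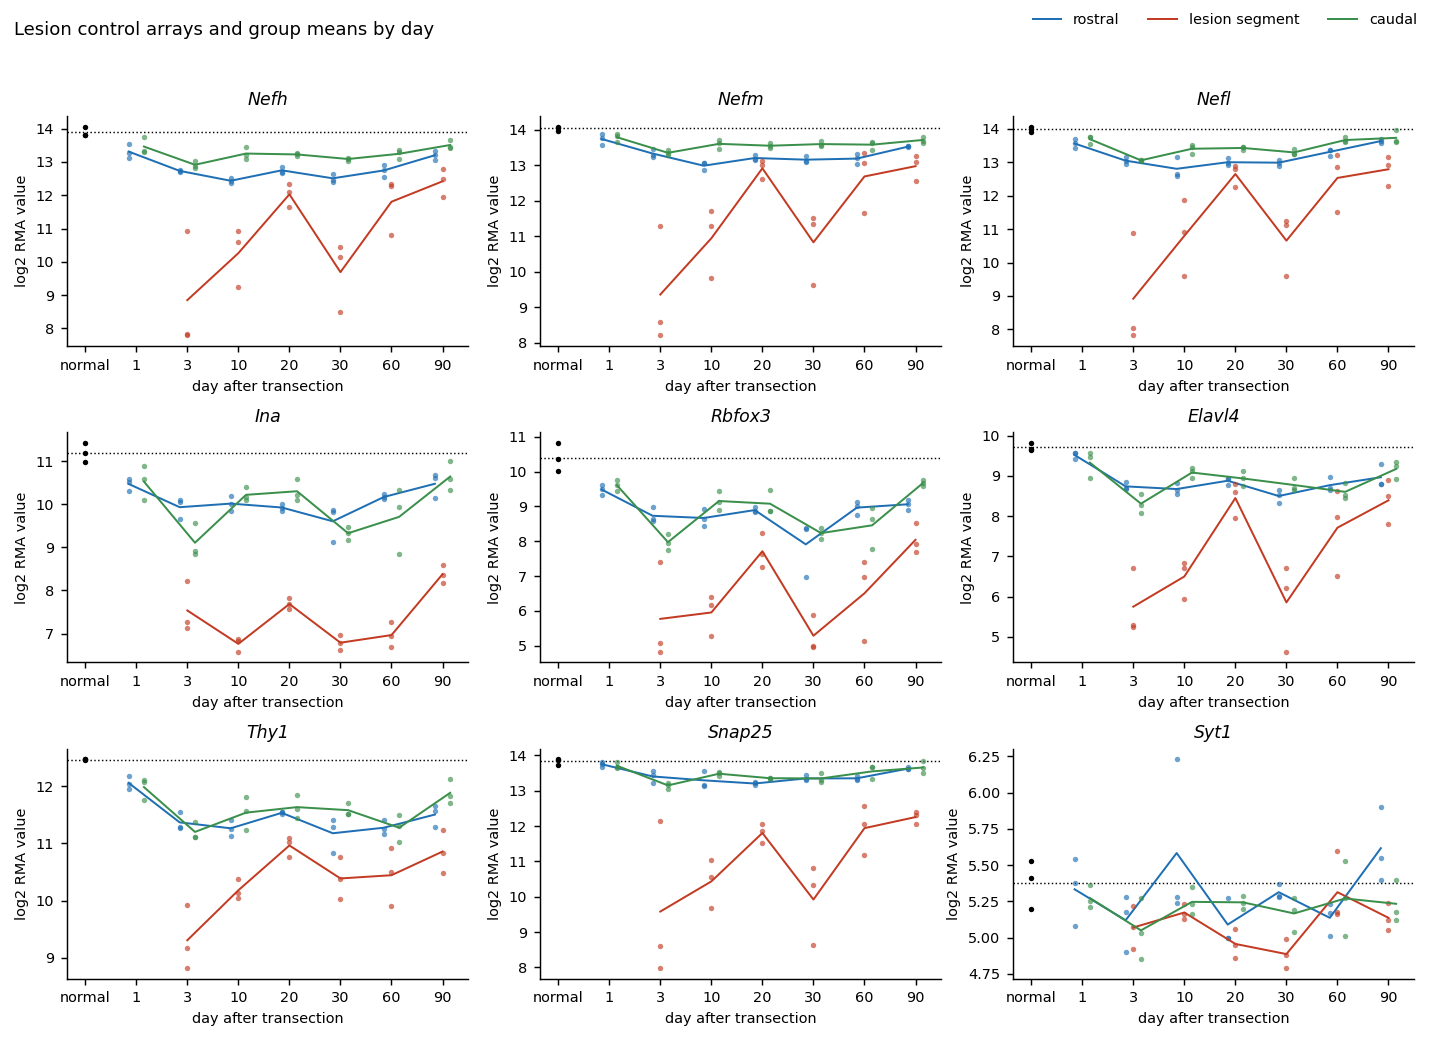
log2 RMA values (vertical axis) of the 9 genes in lesion control by day after transection (horizontal axis, evenly spaced days), with points for arrays and lines for group means in the rostral, lesion and caudal segments; black points and the dotted line are normal cord and its mean. For the genes other than Syt1, nearly all rostral and caudal arrays lie below the normal mean from day 1 to 90, and most lesion arrays lie lower still and spread more; Syt1 stays between 4.79 and 6.23 on every array.

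Other neuronal genes moved the same way rostrally, by lists that were chosen with earlier results of these data known. Of all genes tested there on days 10-30, 32.4% were called lower and 30.7% higher. On days 10-30, 14 of 18 genes of the neuronal cytoskeleton and axonal transport were lower and 1 was higher (median -0.80), with the axon initial segment spectrin Sptbn4 at -1.57 ± 0.15 and the kinesin heavy chain Kif5a at -1.36 ± 0.13. The 1 that rose was Gap43, a growth cone protein, at 0.47 ± 0.09. Of the genes for neuronal RNA-binding and nuclear proteins 5 of 5 tested were lower (8 listed), among them the neuronal transcription factor Myt1l (-1.28 ± 0.10) and the splicing regulator Celf4 (-1.21 ± 0.11). Of 20 tested genes of synaptic vesicle release (26 listed) 17 were lower, with the endocytic dynamin Dnm1 (-1.38 ± 0.15) and the v-SNARE Vamp1 (-1.25 ± 0.11), and 1, Syngr1, was higher (0.94 ± 0.13). Of 10 tested neuronal enzymes and pumps 9 were lower, including the calcium pump Atp2b2 (-1.50 ± 0.11) and the mitochondrial creatine kinase Ckmt1 (-1.37 ± 0.14). Gap43 and Syngr1 were chosen for naming after their values were seen.

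Caudally the counts on days 10-30 were 13 lower and 1 higher of 18, 5 of 5, 16 lower and 1 higher of 20, and 9 of 10. Of all genes tested there 29.3% were called lower, and the share called higher is not given here. The genes named by the same rule were Sptbn4 (-1.28 ± 0.16) and beta-synuclein, Sncb (-1.03 ± 0.20), Myt1l (-0.99 ± 0.14) and Rbfox1 (-0.90 ± 0.13), Dnm1 (-1.10 ± 0.15) and Napb (-0.99 ± 0.15), and Atp2b2 (-1.14 ± 0.13) and neurochondrin, Ncdn (-0.95 ± 0.18).

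In the lesion block all 8 members were far below normal cord on day 3. Nefl read 10.89, 8.05 and 7.82 on the 3 lesion control arrays, against 13.91 to 14.07 in normal cord. Snap25 read 12.15, 8.61 and 7.98, and Rbfox3 7.41, 5.08 and 4.83. Array 1 of this group stood apart from the other 2 for every tested member, and no array reached the normal range. The changes were -5.04 ± 0.71 for Nefh, -4.68 ± 0.70 for Nefm, -5.07 ± 0.72 for Nefl (33.6-fold, limma adjusted p = 1.41e-07), -3.66 ± 0.26 for Ina, -4.63 ± 0.53 for Rbfox3, -3.96 ± 0.53 for Elavl4, -3.16 ± 0.28 for Thy1 and -4.25 ± 0.70 for Snap25. The background of genes called lower was 34.8%, and the members' median of -4.44 stood beside 0.11 for all genes. Without array 1 the median was -5.49. The same array also differed in other cells' markers: its skeletal muscle list lay 0.40 above normal cord, against 4.53 and 1.48 in the other 2, and its oligodendrocyte list -1.51 against -3.42 and -2.91.

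After day 3 the neurofilament chains rose in the lesion block of lesion control, unevenly over the days. Nefl arrays read 11.86, 9.61 and 10.93 on day 10, then 12.26, 12.88 and 12.81 on day 20. On day 30 they read 11.11, 9.61 and 11.25, on day 60 12.85, 13.23 and 11.52, and on day 90 13.15, 12.30 and 12.93. Day 20 thus stood above days 10 and 30, and the 3 highest arrays were those of days 60 and 90, still below every normal array. From day 3 to days 10-30 the change was 1.81 ± 0.58 for Nefh, 2.21 ± 0.57 for Nefm, 2.45 ± 0.58 for Nefl, 1.19 ± 0.43 for Elavl4 and 1.20 ± 0.23 for Thy1, 5 of 8 called higher (25.6% of all genes). Only Thy1 had ranges apart. Ina (-0.46 ± 0.21, limma adjusted p = 0.0652), Rbfox3 (0.55 ± 0.43) and Snap25 (1.14 ± 0.57) were not called.

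From days 10-30 to days 60-90 a further 7 of 8 were higher in the lesion block, against 18.9% of all genes. Nefh gained 1.45 ± 0.46, Nefm 1.27 ± 0.45, Nefl 1.29 ± 0.46, Elavl4 1.12 ± 0.34, Rbfox3 0.95 ± 0.34, Snap25 1.38 ± 0.45 and Ina 0.59 ± 0.17, while Thy1 changed by 0.14 ± 0.18. The groups overlapped for every gene. These calls depend on which days are averaged: without day 10 there were 2, without day 30 there was 1 and without day 90 none, and Ina without day 90 had -0.11 (limma adjusted p = 0.697). Leaving out 1 array at a time gave 4 to 7 calls, with 4 when array 2 of day 10, array 1 or 2 of day 60 or array 1 of day 90 was left out.

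By days 60-90 the lesion block of lesion control was still below normal cord for 6 of the 8 members. Nefm (-1.21 ± 0.61, limma adjusted p = 0.0732) and Nefl (-1.33 ± 0.62, limma adjusted p = 0.0553) no longer passed the threshold, although all 6 arrays of each lay below normal cord. Nefh (-1.78 ± 0.61), Elavl4 (-1.66 ± 0.46), Thy1 (-1.81 ± 0.24) and Snap25 (-1.74 ± 0.60) were lower. So were Ina (-3.52 ± 0.23, limma adjusted p = 3.84e-15) and Rbfox3 (-3.13 ± 0.46). Array 3 of day 60 read Rbfox3 at 5.15, within its reference RNA range of 4.60 to 5.16, so its loss may be understated. Ina read 8.59, 8.17 and 8.37 on day 90 and 6.68, 7.27 and 6.95 on day 60. The day 60 arrays lay within the range of the reference RNA for Ina, 6.29 to 7.28, so its changes in the lesion block are given without a fold. Called lower were 6 of 8 members and 36.6% of all genes. On days 10-30 all 8 had been lower, with 36.2% of all genes, from -1.95 ± 0.23 for Thy1 to -4.11 ± 0.21 for Ina and -4.08 ± 0.43 for Rbfox3, with Nefm at -2.48 ± 0.57, Nefl at -2.62 ± 0.58, Elavl4 at -2.77 ± 0.43, Snap25 at -3.11 ± 0.57 and Nefh at -3.23 ± 0.58.

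**Figure D2:**
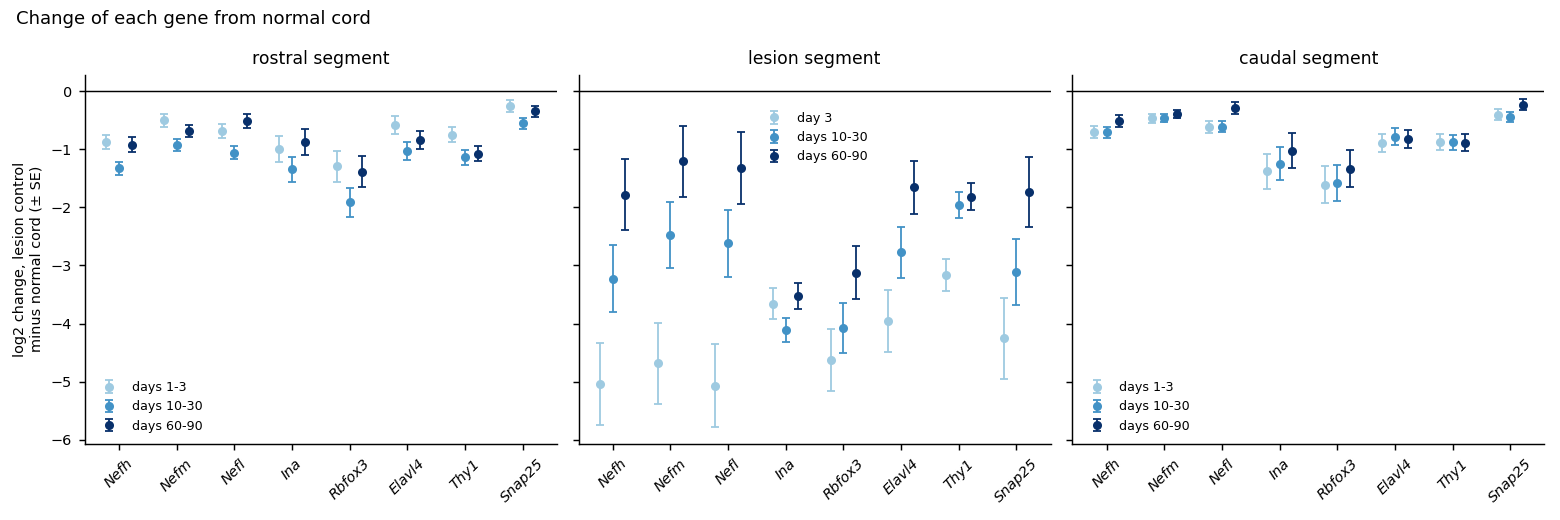
log2 change of lesion control from normal cord (vertical axis, limma estimate ± SE) for the 8 tested genes (horizontal axis) in 3 windows of days, by segment. Rostral and caudal changes lie between -0.23 and -1.91; in the lesion segment the neurofilament chains, Elavl4 and Snap25 move from between -5.07 and -3.96 on day 3 to between -1.21 and -1.78 on days 60-90, while Ina moves from -3.66 to -3.52 and Rbfox3 from -4.63 to -3.13.

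Markers of sensory ganglion neurons, which lie outside the cord in the dorsal root ganglia, were read on the same lesion arrays. The list mean relative to normal cord was -0.70, -0.91 and -0.95 on the day 3 lesion control arrays, 0.80, -0.46 and 0.56 on day 10, 1.38, 2.16 and 1.91 on day 20, 0.82, -0.30 and 0.52 on day 30, 1.79, 2.08 and 0.74 on day 60, and 2.12, 1.02 and 1.67 on day 90. Its day means, like those of Nefl, were above those of days 10 and 30 on days 20, 60 and 90 and lowest on day 3. Those of Ina were above days 10 and 30 (6.76 and 6.79) on days 20, 60 and 90 too (7.69, 6.97 and 8.38). The Ina mean of day 3, 7.54, was not its lowest, with arrays at 8.22, 7.12 and 7.27. Rbfox3 means were 5.77 on day 3, 5.96 and 5.29 on days 10 and 30, and 7.71, 6.51 and 8.04 on days 20, 60 and 90. On days 60-90, 6 of 8 tested genes of the list (12 listed) were higher than normal cord, against 35.6% of all genes, with the actin-binding Avil 13.9-fold, the sodium channel Scn11a at 2.82 ± 0.42, the purinergic receptor P2rx3 at 2.35 ± 0.41 and the peptide gene Calca at 2.16 ± 0.63, while Sncg (0.36 ± 0.37) and Tac1 (0.19 ± 0.63) were not called. Calca and Tac1 are also made by cord neurons, and Sncg by motor neurons. Schwann cell genes were higher in 4 of 5 tested (median 1.55) and skeletal muscle genes in 8 of 11 (median 3.77) on the same days. The part of these cells in the values of the neuronal genes was not tested. These 6 marker genes were picked for naming after their values were seen.

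**Figure D3:**
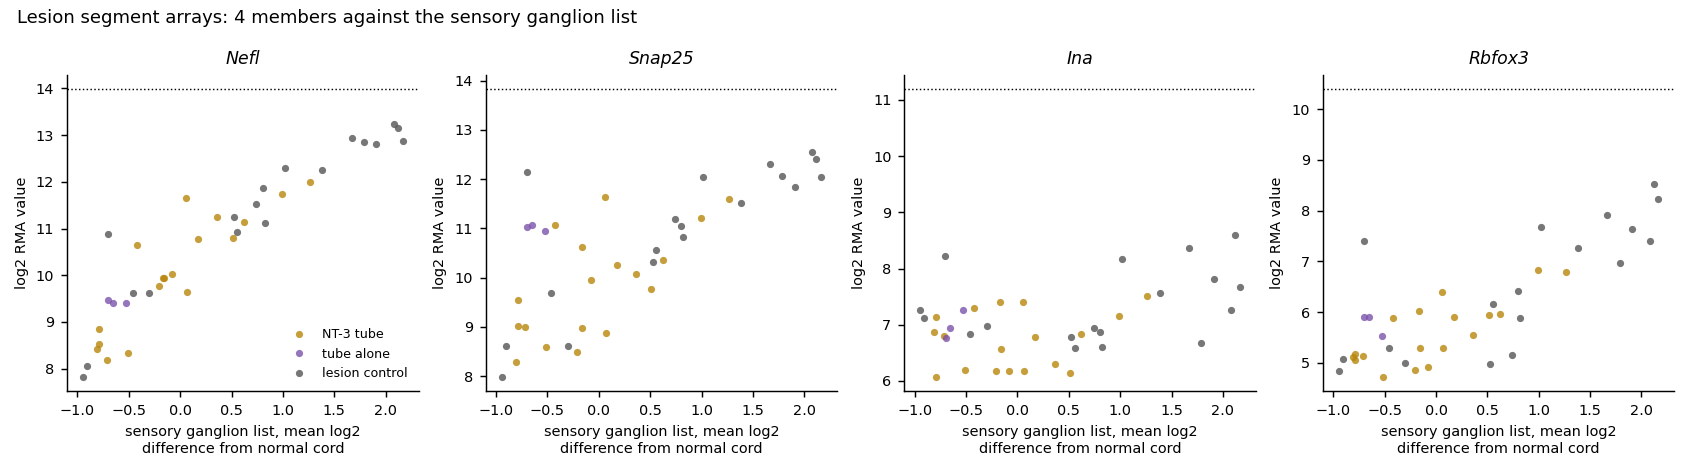
log2 RMA value of Nefl, Snap25, Ina and Rbfox3 (vertical axis) on each lesion array, by arm, against the mean log2 difference of the sensory ganglion list from normal cord on the same array (horizontal axis); the dotted line is the gene's mean in normal cord. Most lesion control arrays of days 20, 60 and 90 lie furthest right and highest for Nefl and Snap25, all below the normal mean, while Ina stays between 6 and 9 across the whole axis.

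The other neuronal lists stayed low in the lesion block. Of all genes tested there 36.2% were called lower on days 10-30 and 36.6% on days 60-90. The share called higher on days 10-30 is not given here. On days 10-30, 17 of 18 cytoskeleton and transport genes were lower than normal cord (median -2.45), among them Sncb (-3.99 ± 0.26) and the kinesin Kif5c (-3.75 ± 0.38). RNA-binding and nuclear genes were lower in 5 of 5, with Rbfox1 (-3.55 ± 0.30) and Elavl2 (-3.13 ± 0.61). Vesicle release genes were lower in 18 of 20 and higher in 1, with Vamp1 (-4.22 ± 0.36) and complexin, Cplx1 (-4.16 ± 0.53), and enzymes and pumps in 10 of 10, with Ckmt1 (-4.63 ± 0.44) and Atp2b2 (-4.55 ± 0.34). On days 60-90 the counts were 15 of 18, 5 of 5, 17 of 20 and 10 of 10, with medians of -1.71, -2.32, -1.89 and -2.78. The 1 vesicle gene that rose on days 10-30 was Syngr1 (0.53 ± 0.13). The peripherin gene Prph, an intermediate filament of peripheral and motor neurons, was not called there (-0.79 ± 0.58); it too was picked for naming after its values were seen.

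The NT-3 tube was compared with lesion control to ask whether the implant changed the neuronal signal in the gap. On day 3 the Nefm arrays read 11.84, 11.92 and 10.18 with the NT-3 tube, 10.18, 10.02 and 9.66 with the tube alone and 11.29, 8.20 and 8.57 in lesion control. The NT-3 tube and lesion control ranges overlapped. Nefl (2.28 ± 0.72, limma adjusted p = 0.0246) and Nefm (1.96 ± 0.70, limma adjusted p = 0.0481) were higher with the NT-3 tube, 2 of 8 members against 9.99% of all genes, and no matched day exists for this comparison. Nefh (1.84 ± 0.71), Snap25 (1.71 ± 0.70), Elavl4 (1.35 ± 0.53), Rbfox3 (0.63 ± 0.53), Thy1 (0.39 ± 0.28) and Ina (-0.10 ± 0.26) were not called. Without array 1 of lesion control 6 members were called and without array 3 of the NT-3 tube 4, while leaving out any of the other 4 arrays left 0. Sensory ganglion genes were higher in 5 of 8 and Schwann cell genes in 4 of 5 in the same comparison, with medians of 1.51 and 1.05.

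Averaged over the later windows the NT-3 tube lay below lesion control. On days 10-30 Nefh arrays ranged from 7.19 to 9.94 (median 8.57) with the NT-3 tube and from 8.48 to 12.33 (median 10.60) in lesion control. The 8 members were all lower, against 19.3% of all genes: Nefh by -2.0 ± 0.41, Nefm by -2.03 ± 0.40, Nefl by -1.92 ± 0.41, Ina by -0.50 ± 0.15, Rbfox3 by -1.0 ± 0.31, Elavl4 by -1.40 ± 0.31, Thy1 by -0.61 ± 0.16 and Snap25 by -1.33 ± 0.40. The result rests on day 20. On that day Nefh read 8.24, 7.76 and 7.19 with the NT-3 tube against 11.66, 12.33 and 12.09, a change of -4.30 ± 0.71, and all 8 members were called (14.3% of all genes). On days 10 and 30 taken singly none of the 8 was called by limma (5.26% and 18.3% of all genes called in either direction), with an unadjusted p under 0.05 for 0 on day 10 and 1 on day 30, from -0.17 ± 0.70 (Snap25) to -0.52 ± 0.70 (Nefm) on day 10 and from -0.03 ± 0.53 (Rbfox3) to -1.28 ± 0.72 (Nefl) on day 30. Rbfox3 on day 30 read 5.30, 5.18 and 5.29 with the NT-3 tube and 5.89, 5.00 and 4.98 in lesion control. These values lie near its reference RNA range of 4.60 to 5.16, so a difference could be missed. On the matched days, which are days 10 and 30, 0 were called and the median was -0.52, against -1.36 with day 20. RT1-CE10 read 10.05, 8.38 and 11.26 with the NT-3 tube on day 20 and 7.09, 7.33 and 7.53 in lesion control.

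On days 60-90 all 8 members were again lower with the NT-3 tube, against 15% of all genes. Snap25 arrays ranged from 8.48 to 11.22 (median 10.17) and from 11.19 to 12.56 (median 12.19) in lesion control, a change of -2.27 ± 0.49 (4.81-fold, limma adjusted p = 0.000598). Thy1 differed by -1.42 ± 0.20. Ina, at 6.31, 6.17 and 6.79 with the NT-3 tube on day 90, differed by -1.10 ± 0.18; its NT-3 tube mean of 6.58 lay within the reference RNA range, so this may understate the difference. Nefh (-2.28 ± 0.50), Nefm (-2.18 ± 0.49), Nefl (-2.16 ± 0.51), Elavl4 (-2.03 ± 0.38) and Rbfox3 (-1.64 ± 0.37) were lower. Day 60, the matched day, had 6 of 8 called (10.4% of all genes), with Nefl at -2.13 ± 0.72 and Thy1 at -1.13 ± 0.28, but not Ina (-0.24 ± 0.26) or Rbfox3 (-0.66 ± 0.53). Array 3 of the NT-3 tube on day 60 was low, with Nefl at 8.33 against 11.13 and 11.75. Day 90, not matched, had all 8 called (12.3% of all genes), from -1.71 ± 0.28 for Thy1 to -2.68 ± 0.71 for Nefh. Whether the difference between arms changed between day 3 and the later days was not tested.

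**Figure D4:**
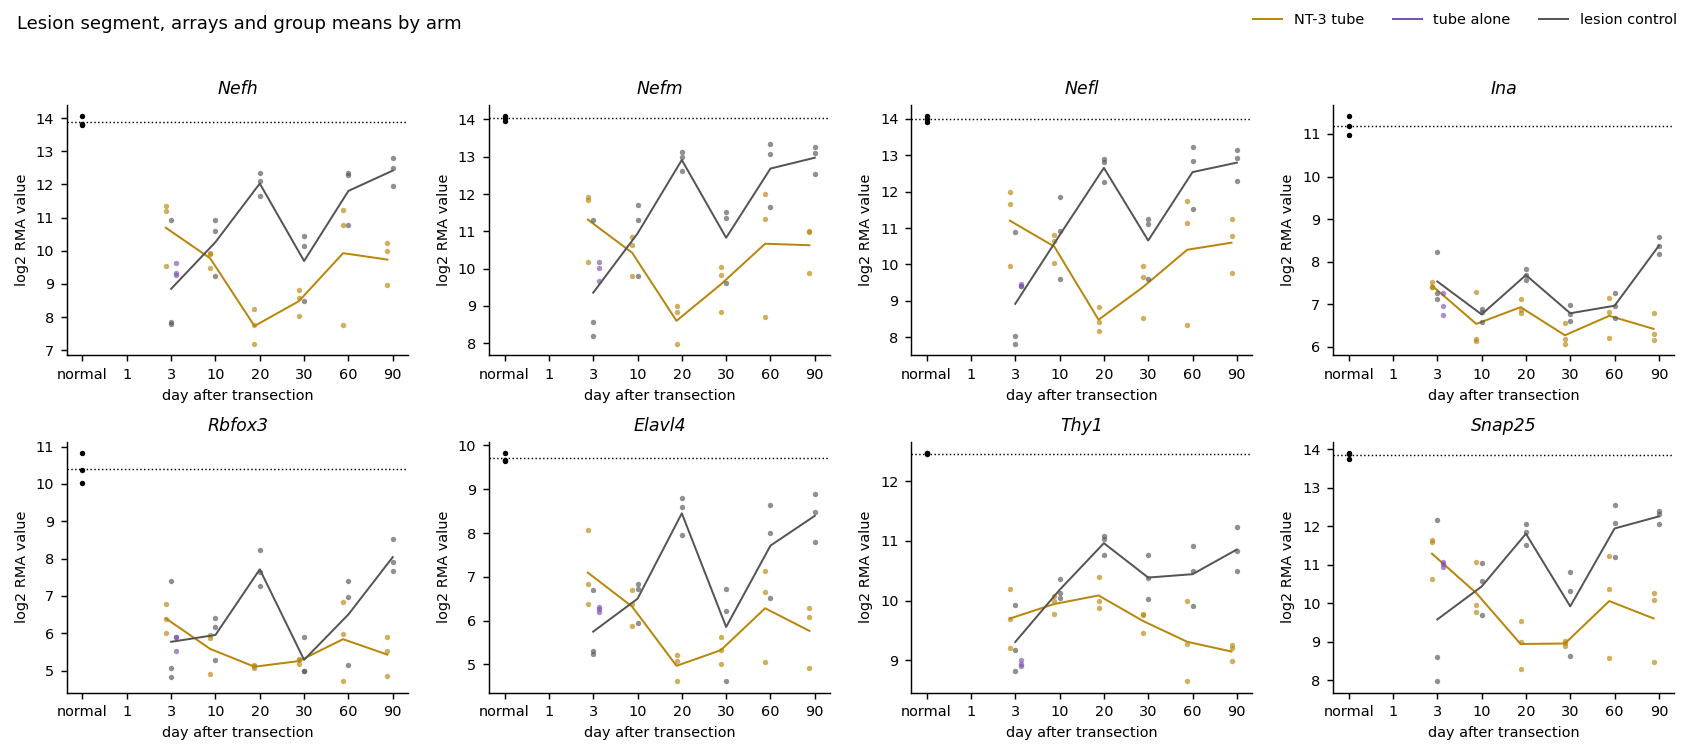
log2 RMA values (vertical axis) of the 8 tested genes in the lesion segment by day after transection (horizontal axis, evenly spaced days) and arm, with points for arrays and lines for group means; black points and the dotted line are normal cord and its mean. On day 3 the NT-3 tube mean lies above that of lesion control for every gene but Ina. On days 20, 60 and 90 the means lie apart with lesion control higher, though by little for Ina on day 60. On day 30 lesion control is higher too, by little for Rbfox3, and for most genes the means are closest on day 10.

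Other cells' markers differed between these arms too. Against lesion control on days 60-90, the NT-3 tube block was lower in 8 of 8 sensory ganglion genes (median -1.51), 9 of 11 skeletal muscle genes (median -2.75) and 6 of 7 oligodendrocyte genes (median -1.14), against 15% of all genes. It was higher in 7 of 8 T cell genes (median 0.95), against 22.9%. On days 10-30 it was lower in 10 of 11 skeletal muscle genes and 3 of 7 oligodendrocyte genes, against 19.3% of all genes. On day 20 the T cell list lay 3.43, 3.01 and 3.12 above normal cord with the NT-3 tube and 1.33, 1.34 and 1.36 in lesion control. The sensory ganglion list lay at -0.79, -0.81 and -0.71 with the NT-3 tube that day, and its values in lesion control are given above. The part of these cells in the difference between arms was not tested. Neuronal lists were lower alongside on days 60-90, where the share of all genes was 15%: 17 of 18 cytoskeleton and transport genes, 3 of 5 RNA-binding genes, 14 of 20 vesicle genes and 9 of 10 enzymes and pumps. Averaged over all 6 days the 8 members were lower (19% of all genes), from -0.63 ± 0.11 for Ina to -1.45 ± 0.29 for Nefh. Over the matched days 10, 30 and 60 there were 4 called, and the share of all genes on those days is not given here. The matched days leave out day 20 and day 90.

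The empty tube could be compared in the lesion on day 3 only. None of the members was called against lesion control (limma, 7.1% of all genes called in either direction; 2 had an unadjusted p under 0.05), with Snap25 at 11.03, 10.95 and 11.07 against 12.15, 8.61 and 7.98 (1.44 ± 0.70, limma adjusted p = 0.196). The NT-3 tube was higher than the tube alone for Thy1, at 9.69, 10.20 and 9.21 against 8.90, 8.93 and 9.01 (0.75 ± 0.28, limma adjusted p = 0.0458), with the ranges apart. That was 1 of 8 members, against 16% of all genes, and leaving out 1 array gave 0 to 2 calls (0 without any of the tube alone arrays or array 1 or 2 of the NT-3 tube). Nefl (1.77 ± 0.72, limma adjusted p = 0.0697), Ina (0.45 ± 0.26), Rbfox3 (0.62 ± 0.53) and Elavl4 (0.84 ± 0.53) had ranges that did not overlap either, without passing the test. Ranges of Syt1, which was not measured usefully, were apart too, in the other direction (4.73 to 4.96 against 5.18 to 5.56). The share of all genes with ranges apart here was not counted, so nothing is read from the ranges.

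Rostral to the lesion the arms differed in the first days. On days 1-3 Rbfox3 arrays ranged from 7.78 to 8.85 (median 8.24) with the NT-3 tube and from 8.59 to 9.62 (median 9.15) in lesion control. Elavl4 ranged from 7.96 to 8.78 and from 8.67 to 9.57. All 8 members were lower with the NT-3 tube, against 14.8% of all genes, and for each the ranges overlapped: by -0.82 ± 0.22 for Rbfox3, -0.76 ± 0.19 for Ina, -0.74 ± 0.13 for Elavl4, -0.55 ± 0.11 for Thy1, -0.40 ± 0.08 for Snap25, -0.35 for Nefm and Nefl and -0.30 ± 0.10 for Nefh. No matched day exists in this window, and with the arrays of replicate 3 left out 2 members were called. Microglia and macrophage genes were higher in 5 of 8 (19.7% of all genes) and oligodendrocyte genes lower in 5 of 7 in the same comparison.

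Later no member was called between the NT-3 tube and lesion control rostrally by limma. On days 10-30 the differences ran from 0.06 to 0.24, and on days 60-90 from -0.15 to 0.19, with 0 of 8 called, where 0.407% and 0.0692% of all genes were called. An unadjusted p under 0.05 was found for 3 and 0 of them. Over all days 0 of 8 were called (3.04% of all genes), and 2 had an unadjusted p under 0.05. This does not show that the arms were alike: for Rbfox3 on days 10-30 the standard error of 0.18 exceeded the estimate of 0.09.

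The empty tube gave the lowest rostral values when all days were averaged. Elavl4 ranged from 7.86 to 9.03 (median 8.47, 20 arrays) against 8.33 to 9.57 (median 8.80, 21 arrays) in lesion control, and Thy1 from 10.46 to 11.76 against 10.83 to 12.18. All 8 members were lower than in lesion control, against 18.3% of all genes, with overlapping ranges: from -0.19 ± 0.05 for Snap25 to -0.42 ± 0.07 for Elavl4 (limma adjusted p = 1.16e-05) and -0.41 ± 0.12 for Rbfox3. Ina and Rbfox3 were not called on the matched days. Against the tube alone the NT-3 tube was higher for 6 of 8, against 15.6% of all genes, by 0.35 ± 0.05 for Nefh, 0.25 ± 0.05 for Nefm, 0.26 for Nefl and Elavl4, 0.28 ± 0.06 for Thy1 and 0.14 ± 0.05 for Snap25, but not for Ina (0.11 ± 0.10) or Rbfox3 (0.24 ± 0.12). On the matched days only Nefh and Nefm were called, and the share of all genes on those days is not given here. Fibroblast genes were higher with the tube alone than in lesion control in 8 of 8 (median 0.61) and skeletal muscle genes in 7 of 11 (median 0.99), against 12.2% of all genes, and their part in these differences was not tested.

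**Figure D5:**
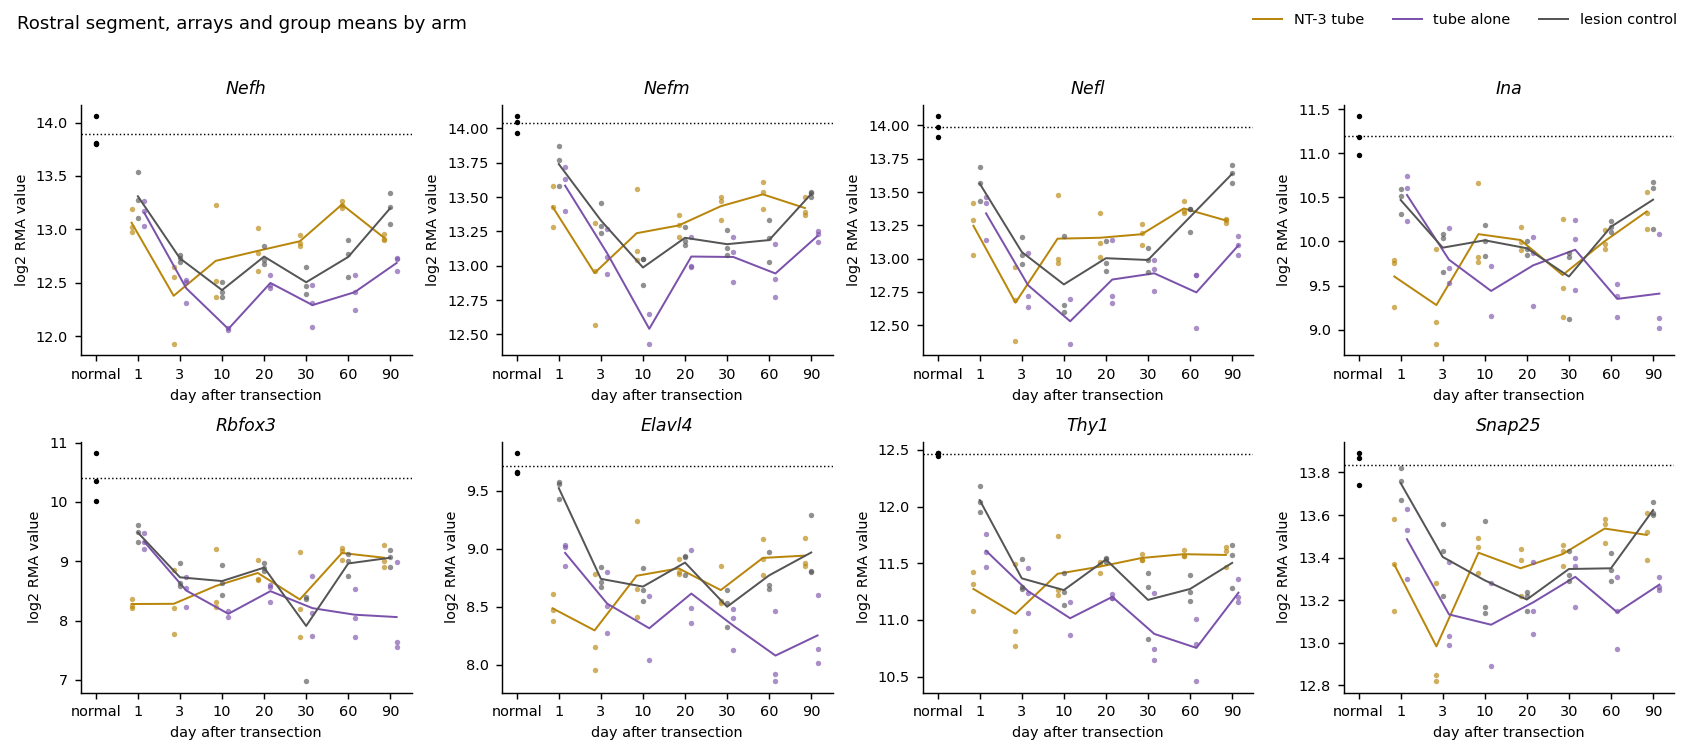
log2 RMA values (vertical axis) of the 8 tested genes in the rostral segment by day after transection (horizontal axis, evenly spaced days) and arm, with points for arrays and lines for group means; black points and the dotted line are normal cord and its mean. For all 8 genes the NT-3 tube means lie lowest on days 1 and 3 and the tube alone means lowest on days 10, 20, 60 and 90.

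Caudally the arms differed by little when days were averaged. Over all days the NT-3 tube was lower than lesion control for Nefh (-0.26 ± 0.04), Nefm (-0.12 ± 0.03) and Nefl (-0.18 ± 0.04), 3 of 8 against 6.25% of all genes. Nefh arrays ranged from 12.38 to 13.46 (median 12.99) and from 12.83 to 13.74 (median 13.24). By window 0 of 8 were called on days 1-3 (7.2% of all genes) and days 60-90 (0.157%) by limma, with an unadjusted p under 0.05 for 1 and 2, and Nefh (-0.35 ± 0.07) and Nefm (-0.18 ± 0.05) on days 10-30 (1.33% lower), where leaving out any replicate number left 0. The tube alone was lower for Nefh (-0.15 ± 0.04), Nefm (-0.11 ± 0.03) and Thy1 (-0.22 ± 0.06), 3 of 8 against 4.99%, with 0 or 1 called when a replicate number was left out. Between the NT-3 tube and the tube alone 0 members were called by limma (3.93% of all genes called in either direction; 1 had an unadjusted p under 0.05), and differences lay between -0.11 and 0.07. Single days could differ more, and the arms were not tested on them caudally. Rbfox3 means on days 1 and 3 were 9.26 and 8.63 with the NT-3 tube and 9.61 and 7.97 in lesion control. Those of Ina were 10.41 and 9.77 against 10.52 and 9.11. On day 10 the Nefh mean was 12.59 with the NT-3 tube and 13.25 in lesion control.

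Over time in lesion control the rostral members were lower on days 10-30 than on the mean of days 1 and 3, and then partly rose. Part of the fall was there by day 3. Thy1 day means were 12.06 and 11.37 on days 1 and 3, then 11.26, 11.53 and 11.18. Those of Rbfox3 were 9.48 and 8.73, then 8.67, 8.89 and 7.91, the last on day 30, where RT1-CE10 was unlike other days. Nefm, Nefl and Snap25 means lay below day 3 on days 10, 20 and 30. From days 1-3 to days 10-30, 7 of 8 were lower, against 22.6% of all genes: by -0.62 ± 0.20 for Rbfox3, -0.46 ± 0.09 for Nefh, -0.45 ± 0.12 for Elavl4, -0.42 ± 0.08 for Nefm, -0.39 ± 0.10 for Thy1, -0.37 ± 0.09 for Nefl and -0.30 ± 0.08 for Snap25. Ina (-0.35 ± 0.17) was not called. From days 10-30 to days 60-90 Nefl gained 0.54 ± 0.09 with ranges apart (12.60 to 13.17, then 13.20 to 13.70), Rbfox3 0.52 ± 0.20, Ina 0.47 ± 0.17, Nefh 0.41 ± 0.09, Nefm 0.24 ± 0.08 and Snap25 0.21 ± 0.08, 6 of 8 against 10.3%. Elavl4 (0.18 ± 0.12) and Thy1 (0.06 ± 0.10) were not called. On days 20, 60 and 90 the means were 12.75, 12.74 and 13.20 for Nefh and 13.20, 13.19 and 13.52 for Nefm. For these 2 genes only day 90 was thus above day 20. Rbfox3 means on days 60 and 90 were 8.96 and 9.06, and its lowest was that of day 30. Nefl means on days 60 and 90, 13.31 and 13.64, were above those of days 10, 20 and 30. Single days were not left out for this step. The probe set not used gave Ina the opposite sign in this step (-0.11) and Nefl 0.19. Leaving out 1 array gave 3 to 5 calls, with 3 when array 2 of day 10 or 60 or array 1 or 3 of day 90 was left out.

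Caudally none of the 8 was called in the first step (limma, differences from -0.04 to 0.13), and 0 had an unadjusted p under 0.05. Of all genes 34.4% were called in either direction. The first window averages a higher day 1 and a lower day 3. On days 1, 3 and 10 the means were 10.52, 9.11 and 10.22 for Ina, 9.61, 7.97 and 9.15 for Rbfox3, and 13.69, 13.06 and 13.41 for Nefl. Differences between these single days were not tested. The later step raised Nefl by 0.32 ± 0.07, Snap25 by 0.21 ± 0.07 and Nefh by 0.19 ± 0.07, 3 of 8 against 12.5%, and only 1 was called without array 1 or 3 of day 60 or array 2 of day 90.

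The neurofilament chains were higher caudally than rostrally in lesion control. On days 10-30 Nefh arrays ranged from 13.03 to 13.46 caudally and from 12.37 to 12.85 rostrally, Nefm from 13.47 to 13.71 and from 12.86 to 13.28, and Nefl from 13.24 to 13.51 and from 12.60 to 13.17. The ranges were apart for all 3, and the share of all genes with ranges apart was not counted. The differences were 0.62 ± 0.07 for Nefh (limma adjusted p = 2.63e-09), 0.47 ± 0.06 for Nefm and 0.44 ± 0.07 for Nefl, 3 of 8 members against 4.16% of all genes. The other 5 were not called: Ina 0.10 ± 0.18, Rbfox3 0.33 ± 0.20, Elavl4 0.25 ± 0.11, Thy1 0.26 ± 0.09 and Snap25 0.11 ± 0.07. On days 60-90 Nefh (0.40 ± 0.09) and Nefm (0.29 ± 0.08) were called, against 1.87%, and 0 or 1 without any replicate number, while on days 1-3 none was (limma, 0.0173% called in either direction; 1 had an unadjusted p under 0.05). The difference between segments was not tested in the other arms. With the NT-3 tube, Nefh means on days 10, 20 and 30 were 12.59, 12.92 and 13.01 caudally and 12.71, 12.80 and 12.89 rostrally. With the tube alone they were 13.17, 13.04 and 12.95 caudally and 12.07, 12.50 and 12.29 rostrally. Normal cord was sampled at the level of the lesion only, so a normal difference between levels cannot be told apart from the injury.

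Taken by single groups, every member was below normal cord nearly everywhere. Of 55 groups Thy1 was called lower in 55, Nefh in 54, Rbfox3 and Elavl4 in 53, Nefm and Ina in 52, Nefl in 51 and Snap25 in 49, and none was called higher; over these comparisons, which share the 3 normal arrays, 21.2% to 38% of all genes were called lower, and 30.5% of all gene tests together. Nefh, Nefm, Nefl, Rbfox3, Elavl4 and Snap25 had their lowest group mean in the NT-3 tube lesion on day 20, at 7.73, 8.60, 8.48, 5.11, 4.97 and 8.94. Ina was lowest in the NT-3 tube lesion on day 30 (6.27) and Thy1 in the tube alone lesion on day 3 (8.95). The Rbfox3 and Elavl4 minima lie near their reference RNA means of 4.99 and 4.68. Of the 55 pairs of groups next to each other in a gene's order, 1 to 3 had arrays apart for the tested genes and the others overlapped.

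In the lesion block the neurofilament chains varied most closely together. Over the 13 lesion group means, which share the surgery and the normalization, Nefl correlated with Nefm at r = 0.99 and Nefh at 0.98, with Elavl4 at 0.93 and Snap25 at 0.86, but with Ina at 0.49. Rbfox3 correlated with Ina at 0.83, Nefl at 0.83, Nefm at 0.86, Nefh at 0.90 and Elavl4 at 0.95. Thy1 lay apart, between 0.49 with Ina and 0.69 with Nefl. In the RefSeq gene table Nefl and Nefm are neighbouring genes.

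Over the 55 injured group means and normal cord, 56 points in 11980 genes, the 2 genes most like each member were as follows. Nefh was closest to Rab6b (r = 0.99) and Elavl2 (0.99), Nefm to Elavl2 (0.99) and Kcnip4 (0.99), and Nefl to Kcnip4 (0.99) and Stmn2 (0.99). Ina was closest to the vesicle protein gene Sv2a (0.98) and Fgf9 (0.98), Rbfox3 to Slc7a14 (0.98) and Fgf9 (0.98), and Elavl4 to Elavl2 (0.99) and Syngr3 (0.99). Snap25 was closest to Nap1l5 (0.996) and Cplx1 (0.99), and Thy1 to Pcdh17 (0.96) and Gabbr2 (0.96). Syt1 reached only 0.74 with Amph and 0.73 with Ndfip2.

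For 4 members other probe sets gave the same direction against normal cord in all segments and windows. In the lesion the other Ina probe set read -5.49, -5.19 and -4.02 in the 3 windows, and the other Nefl probe set read -2.24 on days 60-90. The other Rbfox3 probe set read -3.86, -3.33 and -2.46, and that of Thy1 -2.65, -1.41 and -1.40. Over all 36 comparisons the sign differed in 8 for Ina, 4 for Rbfox3, 3 for Thy1 and 2 for Nefl. Of these 1 was a call, the rostral rise of Ina from days 10-30 to 60-90 (0.47 with the probe set used, -0.11 with the other). On day 3 in the lesion Ina differed between the NT-3 tube and lesion control by -0.10 and 1.04, and between the tube alone and lesion control by -0.54 and 0.92. From day 3 to days 10-30 in the lesion it changed by -0.46 and 0.30, and between the NT-3 tube and lesion control rostrally on days 60-90 it differed by -0.15 and 0.43.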

How the data were processed

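Tissue RNA was measured on Affymetrix arrays. The deposited table holds log2 values that the authors made with Affymetrix Expression Console and RMA, per the submitters' processing notes; their versions are not stated there. Of 31099 probe sets 20832 carry 1 gene symbol in the platform annotation, 436 carry several and 9831 are not listed; symbols were updated through the RefSeq gene table, giving 14218 genes. Genes entered a fit if any group mean reached the 40th percentile of values on cord arrays (6.55). Separate models were fitted to the rostral (11553 genes), lesion (11922) and caudal (11479) segments, each including the 3 normal arrays, with 1 mean per arm and day and contrasts averaging days; caudal against rostral used 1 joint fit (11590). limma (lmFit, contrasts.fit, eBayes) gave p-values; Benjamini-Hochberg adjustment ran over every tested gene of a comparison, with a threshold of 0.05. Depth does not apply to arrays; their number limits the precision.

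The members, gene lists and days averaged were chosen with earlier results of these data known. All 9 members are named; of each neuronal list, up to 2 called genes with the largest change on days 10-30 are named per segment; the lists of cell type markers were set at the same time, and for each member the 2 genes most like it. The lesion comparisons of the NT-3 tube by single day, and leaving out single days, were added after the data were seen. Alternatives were no filter, a second quantile normalization, centring arrays on their median, a trend with robust prior, array weights, the mean of all probe sets, blocking on the replicate number, fits limited to the contrasted groups, matched days and leaving out arrays. Replicate numbers were taken as names. The fits were tested on simulated data. Samples were grouped by their titles. Day 60 is in the labels and not in the design text. R 4.3.3, limma 3.58.1, Python 3.11.15 and pandas 2.3.3 were used.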

Additional observations from a re-analysis of the deposited data

Results flagged for a closer look

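The caudal minus rostral differences of the neurofilament chains in lesion control passed limma's test of the difference: 0.62 for Nefh, 0.47 for Nefm and 0.44 for Nefl on days 10-30, and 0.40 for Nefh and 0.29 for Nefm on days 60-90. On days 10-30 all 9 caudal arrays lay above all 9 rostral arrays for each of the 3 genes. The share of all genes with ranges apart was not counted, so nothing is read from the ranges.

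1 of the 5 reference RNA arrays read Nefl at 4.37, apart from the others, which reached 5.24. A gap of this size is flagged by chance in a small share of groups, and the reference enters no comparison.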

How the results depend on the processing

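The lower values of the members in lesion control against normal cord kept their counts, within 1.5 times, under each alternative run in all 3 segments; their lesion median was -3.59 without day 20 on days 10-30 and, over the arrays left out 1 at a time, ran from -5.49 to -3.93 on day 3. The lesion contrast of the NT-3 tube and lesion control on day 3 gave 1 call with no filter, a second quantile normalization, a trend with robust prior or the mean of all probe sets, 5 with array weights and 0 with only the groups in the contrast, and 0 to 6 with an array left out. The NT-3 tube against the tube alone there gave 0 after quantile normalization or centring, 3 with array weights or only the groups in the contrast, and 0 to 2 with an array left out; the tube alone against lesion control gave 2 with array weights and 0 to 1 with an array left out. On days 10-30 the lesion difference of NT-3 tube and lesion control had 0 calls and a median of -0.52 on matched days, which is also the result without day 20, and a median of -1.96 without day 10; over all days 4 were called on matched days. The rise in lesion control from days 10-30 to 60-90 in the lesion gave 2 calls without day 10, 1 without day 30 and 0 without day 90, where Ina turned to -0.11, a median of 1.90 without day 20, and 4 to 7 with an array left out; the same step gave 3 to 5 rostrally and 1 to 3 caudally with an array left out, and 5 caudally with array weights.

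Array weights also gave 4 calls (higher) for NT-3 tube against lesion control rostrally on days 10-30 and 3 over all days, and caudally 3 on days 1-3, 5 on days 60-90 and 5 over all days, 2 for NT-3 tube against tube alone caudally, and 6 for caudal against rostral on days 10-30. Matched days gave, rostrally over all days, 1 call and a median of 0.16 for NT-3 tube against lesion control and 2 calls against tube alone, and caudally 1 and 2 calls over all days, with a median of 0.052 on days 60-90 against lesion control. Quantile normalization gave 1 call for tube alone against lesion control and 1 for NT-3 tube against tube alone caudally, and only the groups in the contrast gave 0 for NT-3 tube against lesion control caudally on days 10-30. Leaving out a replicate number gave 2 to 8 calls for NT-3 tube against lesion control rostrally on days 1-3, 0 to 0 caudally on days 10-30, 1 to 3 caudally over all days, 0 to 1 for tube alone against lesion control caudally and 0 to 1 for caudal against rostral on days 60-90. The cause of these shifts was not tested. Counts under the alternatives are given without the share of all genes, which can differ from that of the main fit.

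The replicate block left all 36 counts within 1.5 times; it added 2 calls, Nefl in the lesion on days 60-90 (-1.33, limma adjusted p = 0.0409) and Thy1, caudal against rostral, on days 10-30 (0.26, limma adjusted p = 0.0397). The labels do not tie equal numbers in different groups to shared animals. Same-numbered rostral and caudal arrays correlated at a median r of 0.11, with 32 of 62 pairs over 0.1, and differently numbered ones at -0.012, with 37 of 124. In 5 of 20 sets every same-numbered pair was over 0.1, and 60 of 124 arrays correlated best with their own number, so the numbers were not taken to pair the arrays, although same-numbered arrays correlated more. With 3 arrays per group, RMA's equalisation of arrays and a single set of normal arrays shared by every comparison, small differences are the least certain, and the number of pools limits what can be told.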
